A study of Mus musculus with 10 samples.

Results

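Plagl1, Grb10, Impact, Zdbf2, Trappc9, Rasgrf1 and Cdh15 are 7 imprinted genes that lie on 7 different mouse chromosomes, outside the large imprinted clusters. They were chosen by name, and all cytosine positions inside them or within 5000 bp of either end were taken, 1259 of the 2137822 positions of the table (genome build mm10). These positions were placed in tiles of 1000 bp. Of the tiles, 99 held at least 3 measured positions and are described, out of 130 with any position. All 7 genes had such tiles, from 3 in Impact to 54 in Trappc9. The series measured DNA methylation by reduced representation bisulfite sequencing, which reads CpG-rich fragments freed by a restriction enzyme and counts, for each cytosine, the reads that call it methylated. Its 10 samples are embryos at embryonic day 7.5, of which 5 belong to an arsenic group and 5 to a control group. The labels state neither strain, sex, dose and route of exposure nor how many embryos make up a sample. The counts come in 10 sets numbered 1 to 10, called library columns here. No number names a group, so no column was put in the arsenic or the control group, no comparison between those groups was made, and values are given as the median and range over the columns with no test.

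In imprinted genes, methylation that differs between egg and sperm is kept on 1 parental allele after fertilisation, while the other allele stays unmethylated. Such differentially methylated regions are mostly CpG-rich, and a mixture of both alleles reads at a middle level there. ZFP57, a zinc finger protein known from mouse embryonic stem cells to bind the methylated hexamer TGCCGC, and its partner TRIM28 keep this methylation through early development. Plagl1, a zinc finger transcription factor, and Impact, a regulator of translation through GCN1, are expressed from the paternal allele in mouse. Grb10, an adaptor protein that restrains growth, is expressed from the maternal allele in most mouse tissues and from the paternal allele in neurons. The parental alleles were not told apart in these data, so a middle level alone does not show that methylation sits on 1 allele.

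The promoters that the values below turn on are shown here, as RefSeq gives them on GRCm38.p6, the assembly behind mm10. They run from 250 bases before to 50 bases after a transcription start, 5′ to 3′ on the gene's strand, with capitals on each CpG that was measured on at least 1 strand. In the table of promoters, 5 of the 7 genes were matched, with 7 promoters in all. The Plagl1 promoter is shown because it is the intermediate one, and the main Grb10 promoter and the internal Zdbf2 promoter because they are low while tiles elsewhere in these genes are not.
Plagl1, chr10:13090582-13090881, plus strand: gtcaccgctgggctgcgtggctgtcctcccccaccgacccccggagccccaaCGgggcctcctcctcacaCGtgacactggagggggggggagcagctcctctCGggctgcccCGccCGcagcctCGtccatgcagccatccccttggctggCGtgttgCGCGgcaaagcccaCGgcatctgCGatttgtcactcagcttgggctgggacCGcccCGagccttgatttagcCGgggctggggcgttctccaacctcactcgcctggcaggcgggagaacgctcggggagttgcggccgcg
Grb10, chr11:12037371-12037670, minus strand: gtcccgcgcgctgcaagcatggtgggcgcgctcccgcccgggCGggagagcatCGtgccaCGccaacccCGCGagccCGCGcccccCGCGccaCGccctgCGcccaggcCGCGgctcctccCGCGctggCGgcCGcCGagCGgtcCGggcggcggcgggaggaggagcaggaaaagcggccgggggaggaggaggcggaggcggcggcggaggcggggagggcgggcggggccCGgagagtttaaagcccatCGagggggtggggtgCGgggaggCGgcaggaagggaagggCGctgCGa
Zdbf2, chr1:63273019-63273318, plus strand: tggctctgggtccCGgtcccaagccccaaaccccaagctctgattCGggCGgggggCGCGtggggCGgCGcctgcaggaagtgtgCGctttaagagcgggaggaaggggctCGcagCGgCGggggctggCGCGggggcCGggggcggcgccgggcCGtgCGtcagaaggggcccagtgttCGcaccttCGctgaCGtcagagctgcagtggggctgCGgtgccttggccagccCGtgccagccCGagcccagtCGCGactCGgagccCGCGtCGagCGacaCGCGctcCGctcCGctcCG
Of the measured positions inside all promoters of that table, 168084 of 168090 fell on the cytosine of a CpG of their own strand, which checks that positions and sequences share coordinates. The Plagl1 promoter holds 26 CpGs, of which 14 were measured, and the Grb10 and Zdbf2 promoters hold 45 and 38, of which 26 and 34 were measured. TGCCGC was searched on both strands, the other strand reading GCGGCA. It occurs at 1 place in the Plagl1 promoter, at 1 place in the Grb10 promoter and nowhere in the Zdbf2 promoter shown. The upstream Zdbf2 promoter, at chr1:63200108-63200407 and without a measured CpG, holds it at 3 places, and 11.6% of the 32851 promoters in the table hold it. The CpG within this hexamer had a level of 52.7% on the minus strand at Plagl1, over 421 calls. At Grb10 it had 0 methylated calls of 274 on the plus strand, which allows a level of up to 1.09%, and 0 of 277 on the minus strand, which allows up to 1.08%. Each limit is 3 over the number of calls. It takes calls summed over all columns as independent, so it is not a hard limit.

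At Plagl1 the gene end itself was intermediate, by which a level of 30 to 70% is meant here. Within 1000 bp of the end that holds the promoter shown above, 21 positions had a level of 49.1% (95% Wilson interval 48.0 to 50.3%, 7510 calls). Intervals cover counting error only and are too narrow, because calls made on the same read are not independent. The measured positions lie from 197 to 18 bases before the transcription start, and the RNA gene Hymai starts within the same tile. Single positions ranged from 36.5% to 53.7%, and all 21 lay between 30 and 70%. Over the columns the level ranged from 33.9% in column 5 to 74.0% in column 3, with a median of 48.8%. Column 10 was nearly as low as column 5, at 35.8%, and column 7, at 61.0%, came next below column 3. Of 6246 autosomal promoters with at least 10 measured positions, 3.2% were intermediate and 5935 were under 20%. Inside Plagl1, away from its ends, only 2 tiles were measured, at 47.3% over 8 positions and 36.7% over 3 positions. No position was measured at the other end.

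Grb10 had a low gene end with intermediate tiles both inside the gene and beyond that end. Within 1000 bp of the end at the main promoter, 119 positions had a level of 3.10% (interval 2.94 to 3.26%), and single columns lay between 2.08% and 4.51%, with a median of 3.17%. Farther out on the same side, outside the gene, the tile from 12038001 to 12039000 had 46.1% over 8 positions, each between 42.3% and 51.2%, and the tile from 12041001 to 12042000 had 53.2% over 8 positions. The other end had only 2 positions, at 62.9%. Inside the gene, 2 neighbouring tiles were dense, by which at least 20 measured positions are meant, and intermediate, as are 3.08% of the 78463 internal tiles of all autosomal protein-coding genes. On chromosome 11, the 30 positions of the tile from 12025001 to 12026000 had 51.9% methylation (interval 51.1 to 52.7%, 15017 calls). The next tile, from 12026001 to 12027000, had 56.5% over 36 positions (interval 55.6 to 57.4%, 11700 calls). These levels lay far above that of the promoter end in each column, since the lowest column values were 35.8% and 44.8%. RefSeq places a second Grb10 transcription start at 12027971 on the minus strand, and the measured positions of the 2 tiles lie 1090 to 2343 bases downstream of it. In mouse, internal promoters next to the differentially methylated region drive the paternal transcript of neurons. Only 1 position was measured in the promoter of that second start, at 66.9%.

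The columns spread widely at both Grb10 tiles, and not in the same order. In the tile from 12025001, column 2 at 69.0% and column 3 at 67.5% were highest and column 4 at 35.8% was lowest, with a median of 50.7%. In the tile from 12026001, column 9 was highest at 72.9% and column 5 lowest at 44.8%, with a median of 56.0%. Column 9 had only 48.1% in the first of these tiles. Without column 9, the range over columns of the tile from 12026001 was 18.4 points, against 28.1 points with it.

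Impact had the intermediate tile with the most measured positions. Its tile on chromosome 18 from 12973001 to 12974000 had 47 positions at 47.3% (interval 46.6 to 47.9%, 23743 calls), and all 47 lay between 38.9% and 52.5%. Over the columns the level ranged from 37.6% in column 9 to 55.8% in column 7, with a median of 48.4%. This tile is 18.8 kb from the lower-coordinate end of the gene. No position lay within 1000 bp of either gene end. The measured tile nearest to an end, from 12955001 to 12956000, had 4.10% over 6 positions, with a range from 1.75% to 8.05%, so that the gene was low close to that end and intermediate inside. Another internal tile, from 12989001 to 12990000, had 89.4% over 6 positions, the highest of all 99 tiles, with a range from 80.2% to 94.9%.

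**Figure D1:**
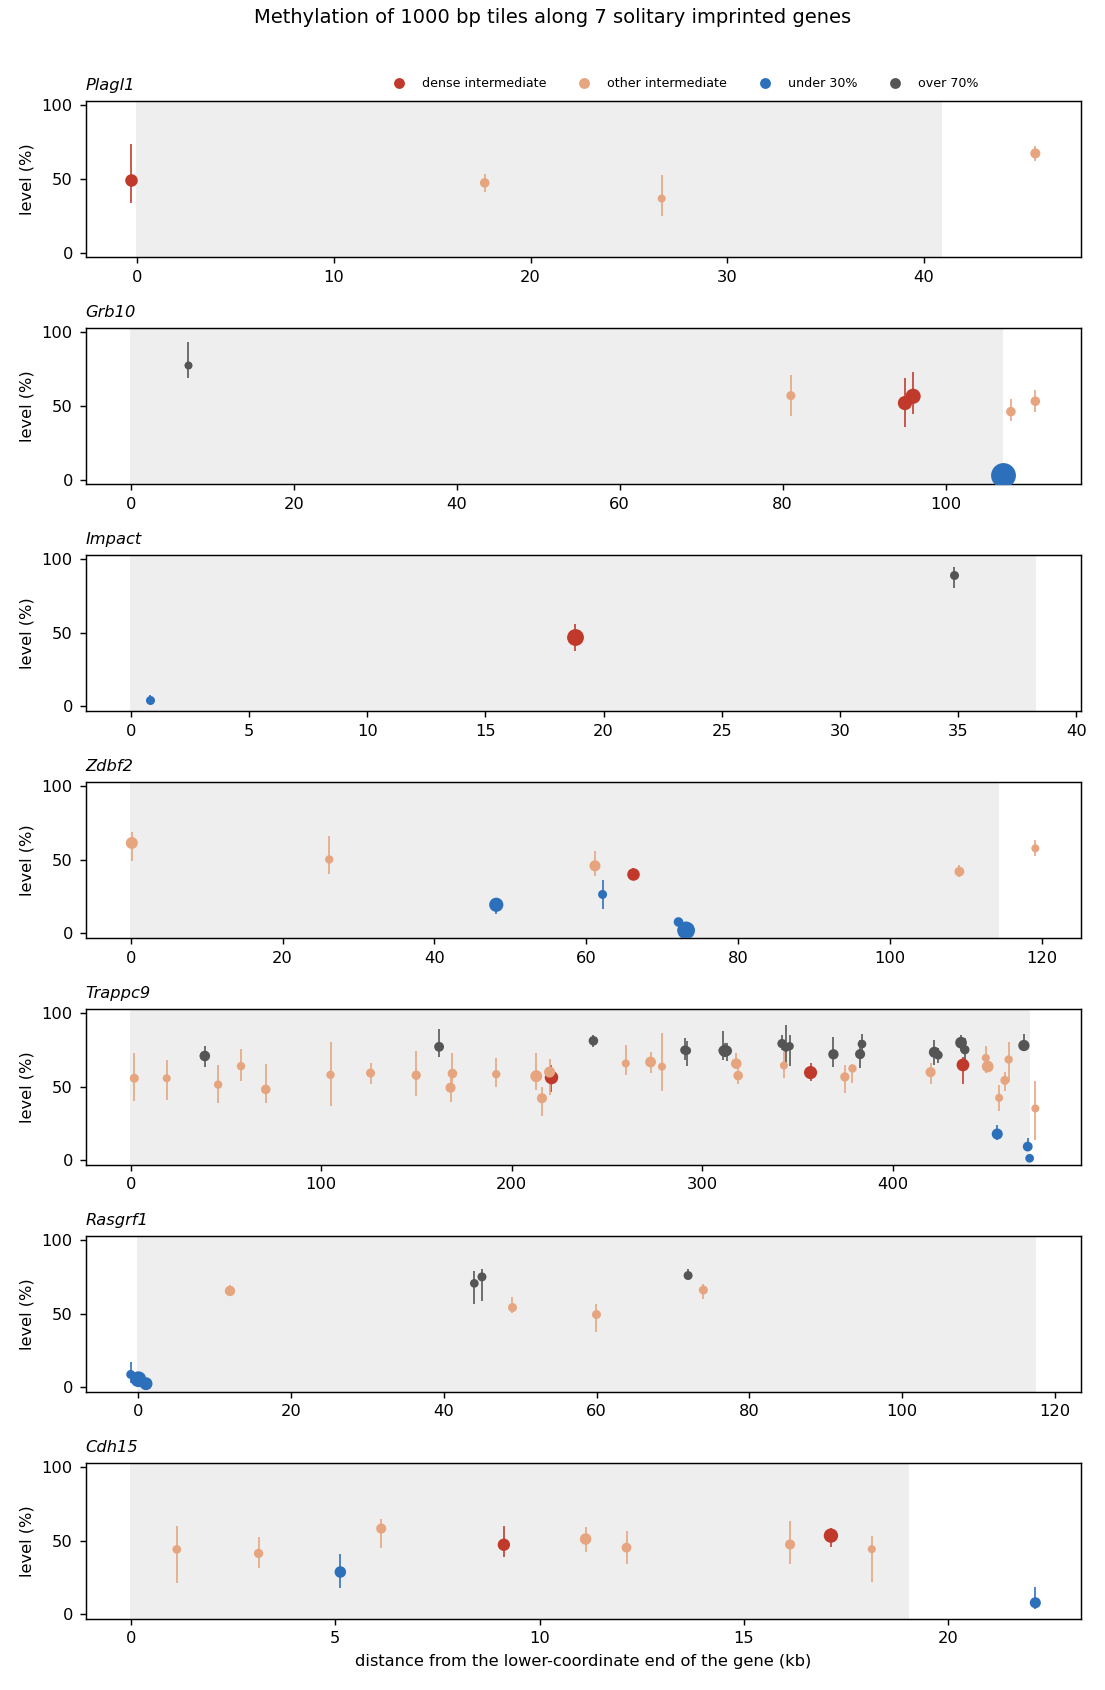
Methylation level of each tile with at least 3 positions, against its distance from the lower-coordinate end of the gene in kb. The grey band is the gene, points are levels over all columns, larger with more measured positions, and lines run from the lowest to the highest of the 10 library columns. Grb10 is low at its upper end (3.10%) and intermediate inside, and Plagl1 is intermediate at its lower end (49.1%).

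Trappc9, which encodes a subunit of the TRAPP vesicle transport complex, holds the imprinted RNA gene Peg13 inside it, and Peg13 is known in mouse for a differentially methylated region of its own. Within 1000 bp of the upper end of Trappc9, 13 positions had a level of 1.61% (interval 1.41 to 1.83%), and single columns lay between 0.626% and 2.48%. The other end had no measured position. Of 51 internal tiles, 31 were intermediate, a class that makes up 57.9% of internal tiles in all genes, 19 were above 70% and 1 was under 20%. The 3 tiles that overlap Peg13 (chromosome 15, 72805602 to 72810324) had levels of 42.2%, 60.03% and 56.3%. The other 48 had a median of 65.3% and a range from 17.9% to 81.3%, so the Peg13 tiles lay within it.

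The densest tile of Trappc9, from 72810001 to 72811000, straddles the upper end of Peg13 and had a level of 56.3% over 26 positions, and columns reached from 46.3% in column 8 to 64.5% in column 5. It fell into separate stretches. The 6 positions inside Peg13 had 85.1%, each between 79.0% and 89.5%. The 20 positions from 216 to 673 bases beyond Peg13 had 51.8%, each between 45.8% and 59.6%. Over the columns the level of these 20 positions ranged from 43.6% in column 4 to 58.7% in column 3, with a median of 53.3%. The split at the end of Peg13 was made after the positions had been seen.

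The other 2 dense intermediate tiles of Trappc9 were mixtures of low and high positions. In the tile from 72946001 to 72947000, with a level of 59.7%, positions ranged from 18.9% to 86.4%, and 10 of 24 lay between 30 and 70%. In the tile from 73026001 to 73027000, with 64.9%, they ranged from 10.8% to 77.1%, and 12 of 22 lay between these limits. Neither overlaps another gene of the RefSeq table.

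Zdbf2, a zinc finger gene, is expressed from the paternal allele in mouse, where a long transcript from an upstream promoter is needed for methylation to be set ahead of the main promoter. RefSeq starts the gene at an upstream promoter, at 63200358 on chromosome 1. Within 1000 bp of that start, 18 positions had a level of 61.5% (interval 60.5 to 62.4%), and single columns lay between 49.4% and 68.7%. The gene Gpr1 overlaps this window, and none of the 15 CpGs in the promoter at that start was measured. No position was measured within 1000 bp of the other end of Zdbf2. The internal promoter shown above, with its start at 63273269, had 2.08% over 52 positions, with a range from 1.14% to 3.29%. Thus the measured end of Zdbf2 was intermediate and a promoter inside the gene was low. In Grb10, by contrast, the end at the main promoter was low and tiles inside were intermediate.

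Between both starts of Zdbf2, levels differed from tile to tile. The tile from 63248001 to 63249000 had 19.5% over 30 positions, and single columns lay between 13.3% and 22.8%. The tile from 63261001 had 46.0% over 14 positions. The tile from 63266001 to 63267000, whose positions lie 7216 to 6758 bases before the internal start, was the only dense intermediate tile of the gene. Its level was 40.2% over 21 positions (interval 39.1 to 41.4%), and single columns lay between 37.3% and 44.6%, with a median of 40.3%. Its positions ranged from 19.7% to 68.5%, and with a coverage of at least 20 reads in each column the 7 positions left had 26.3%. The tile just before the internal start, from 63272001, had 7.80% over 8 positions.

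Cdh15, a cadherin of muscle cells, is known in mouse for a maternally methylated region inside the gene. On chromosome 8, the 31 positions of the tile from 122865001 to 122866000 had 53.5% methylation (interval 52.6 to 54.4%, 11365 calls), and 30 of the 31 lay between 30 and 70%. Over the columns it ranged from 45.9% in column 10 to 58.7% in column 2, with a median of 54.9%. A second dense tile, from 122857001 to 122858000, had 47.3% over 20 positions, with single positions from 3.80% to 77.6%. Its columns ranged from 38.9% in column 4 to 60.3% in column 9, a range of 21.4 points, which was 12.5 points without column 9. Of 8 internal tiles of Cdh15, 7 were intermediate and 1 had 28.8%. The promoter end had 44.1% over only 5 positions and 766 calls. Its median over the columns was 45.4% and its lowest column 21.5%. These positions lie in the tile from 122849001, and none of the 7 CpGs in the promoter itself was measured. The other end had only 2 positions, at 47.4%. Thus Cdh15 had no low end at the positions measured. The only tile under 20% lies beyond the other end of the gene, from 122870001 to 122871000, at 7.90% over 14 positions.

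Rasgrf1, a guanine nucleotide exchange factor for Ras, had a low promoter end and no dense tile inside. Within 1000 bp of that end, 69 positions had a level of 4.79% (interval 4.57 to 5.02%), and single columns lay between 4.04% and 6.45%, the highest being column 7. None of the 26 CpGs in the Rasgrf1 promoter itself was measured. The 7 internal tiles of the gene, with 5 to 11 positions each, had levels from 49.5% to 76.0% and a median of 66.1%. The region known in mouse to control Rasgrf1 imprinting, methylated on the paternal allele, lies upstream of the gene and outside the 5000 bp taken here. The tile that holds the lower-coordinate end of the gene had 5.57% over 40 positions, all of them upstream of that end. With the distance widened to 50000 bp, 3 tiles that lie wholly upstream of the gene were measured. The nearest of these 3, 508 bp away and already within the 5000 bp taken, had 8.81% over 6 positions, with columns between 2.76% and 17.5%. The farthest, 30508 bp from the gene, had 43.9% over 8 positions, with columns between 34.0% and 51.8%. The tile between them, 23508 bp away, had 36.5% over 11 positions, with columns between 28.8% and 43.1%. Whether the tiles 23508 and 30508 bp away belong to the known region was not tested.

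**Figure D2:**
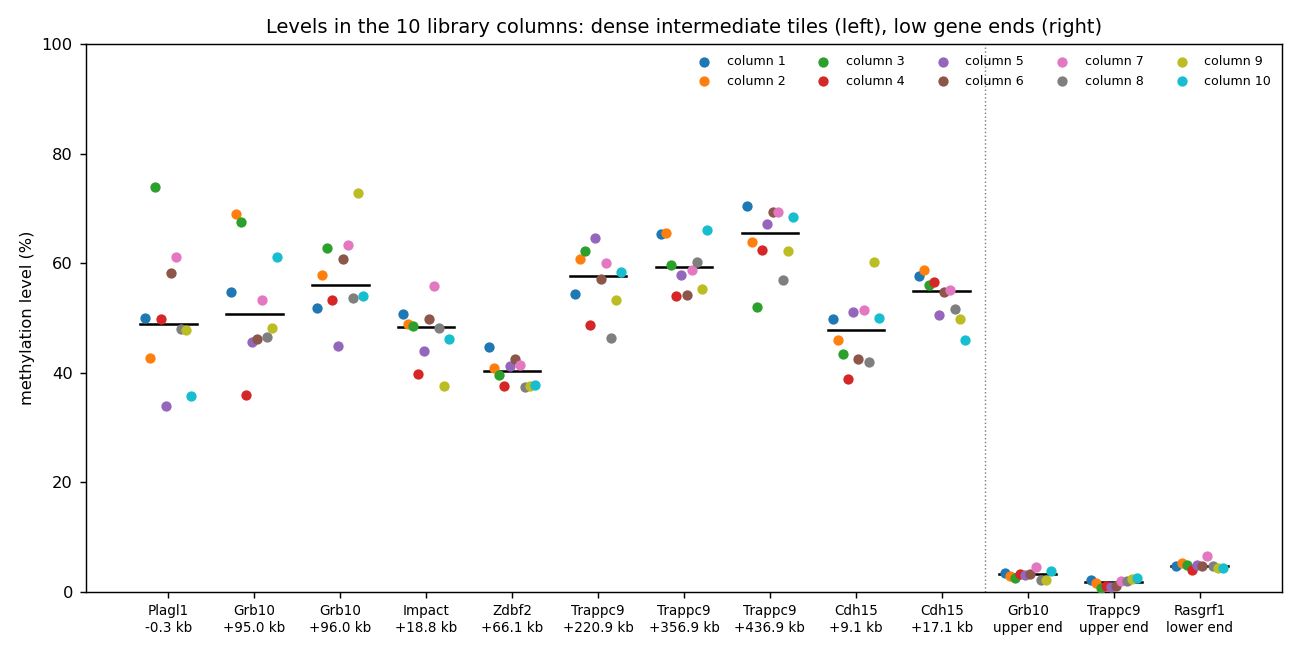
Methylation level of each of the 10 library columns at the 10 dense intermediate tiles (left of the dotted line) and at 3 low gene ends (right), with the median as a bar. The distance under a gene name is that of the tile's centre from the lower-coordinate gene end. At Plagl1 the columns reach from 33.9% to 74.0%, and at the low end of Grb10 from 2.08% to 4.51%.

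Across the 7 genes, dense intermediate internal tiles with a low end were found in Grb10, in Trappc9 and, with the end judged by its nearest tile, in Impact. Zdbf2 and Cdh15 had such tiles without a low end at the end measured, Rasgrf1 had a low end without such a tile, and Plagl1 had neither. The other end had no measured position in Zdbf2 and Plagl1 and only 2 in Cdh15, so it could not be judged. Of 82 internal tiles, 9 in 5 genes were dense and intermediate, against 3.08% of the internal tiles of all genes. Genes holding at least 1 such tile made up 13.9% of the 12939 protein-coding genes with a measured internal tile, and 27.8% of those of at least 100000 bp, a length that Grb10, Zdbf2, Trappc9 and Rasgrf1 exceed. A low end besides the tile, within 1000 bp, was found in 8.3% of the 12939 genes and in 2 of the 7. Of the 11 dense internal tiles, 9 were intermediate, against 32.6% in all genes. A middle level on its own was common. Of the internal tiles of the 7 genes, 63.4% were intermediate, against 57.9% of all internal tiles. The median level was 59.2% in the 7 genes, 49.5% in them without Trappc9, and 62.0% over all internal tiles.

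Tiles at a middle level differed in how alike their positions were, from uniform stretches to mixtures of low and high positions. The interquartile range of the position levels was 3.52 points in the Grb10 tile from 12025001, 4.91 at the Plagl1 end, 5.36 in Impact, 6.72 in the Peg13 tile of Trappc9, 7.73 in the Cdh15 tile from 122865001 and 9.26 in the other Grb10 tile. It was 14.2 points in the other Cdh15 tile, 23.7 in Zdbf2, and 35.7 and 27.4 in the other Trappc9 tiles. Over the 5239 dense intermediate tiles of all autosomes the median was 15.3 points. A value under 10 points, a limit set after the values were seen, was found in 6 of the 10 tiles of these genes and in 14% of those 5239. The Peg13 tile is among those under 10 points, although 6 of its 26 positions, inside Peg13, lay apart from the rest at 79.0% to 89.5%. At least 90% of positions between 30 and 70% were found in 5 of the 10 and in 20.7% of all. The stretch measured within a tile also differed. It was 177 bp in the Grb10 tile from 12025001, 180 at the Plagl1 end and 366 in Impact. In the Cdh15 tile from 122865001 it was 364 bp, in the Peg13 tile 997 and in the other Grb10 tile 831. In the other Cdh15 tile it was 165 bp, in Zdbf2 459, and in the other Trappc9 tiles 803 and 971. The part of this stretch in the evenness was not tested, and no test of these differences was made.

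**Figure D3:**
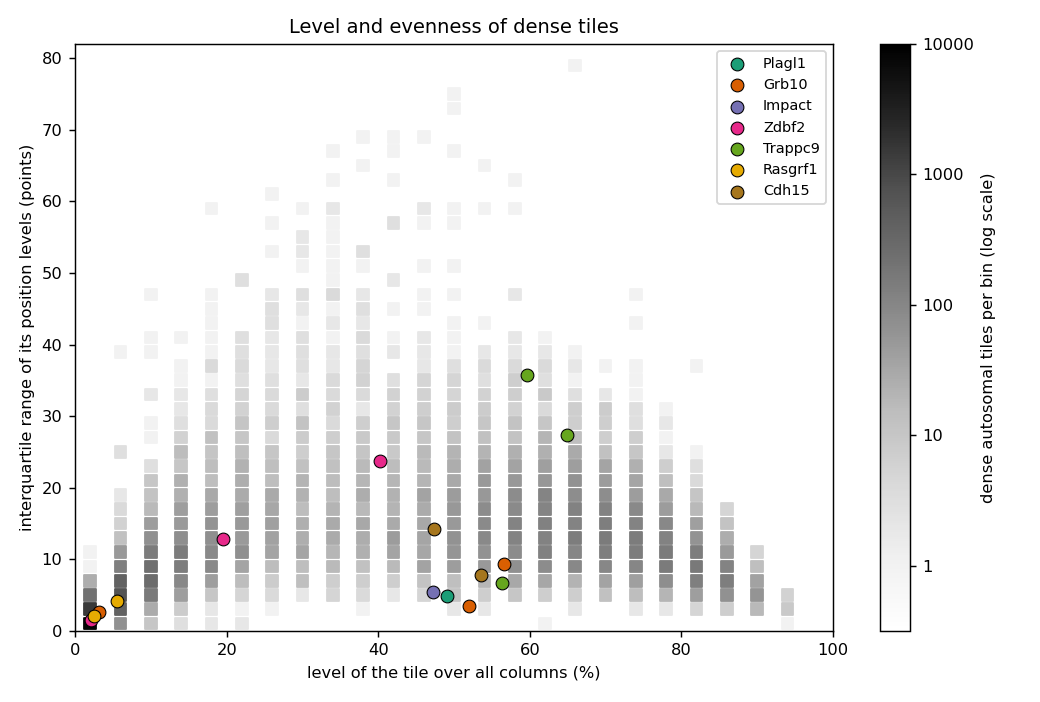
Interquartile range of the position levels in a dense tile, in percentage points, against the level of the tile. Coloured points are the dense tiles of the 7 genes, and grey squares count all dense autosomal tiles on a log scale. The Grb10, Impact and Plagl1 points near 50% lie at 3.52 to 9.26 points, and 2 Trappc9 tiles and 1 Zdbf2 tile lie above 20.

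**Figure D4:**
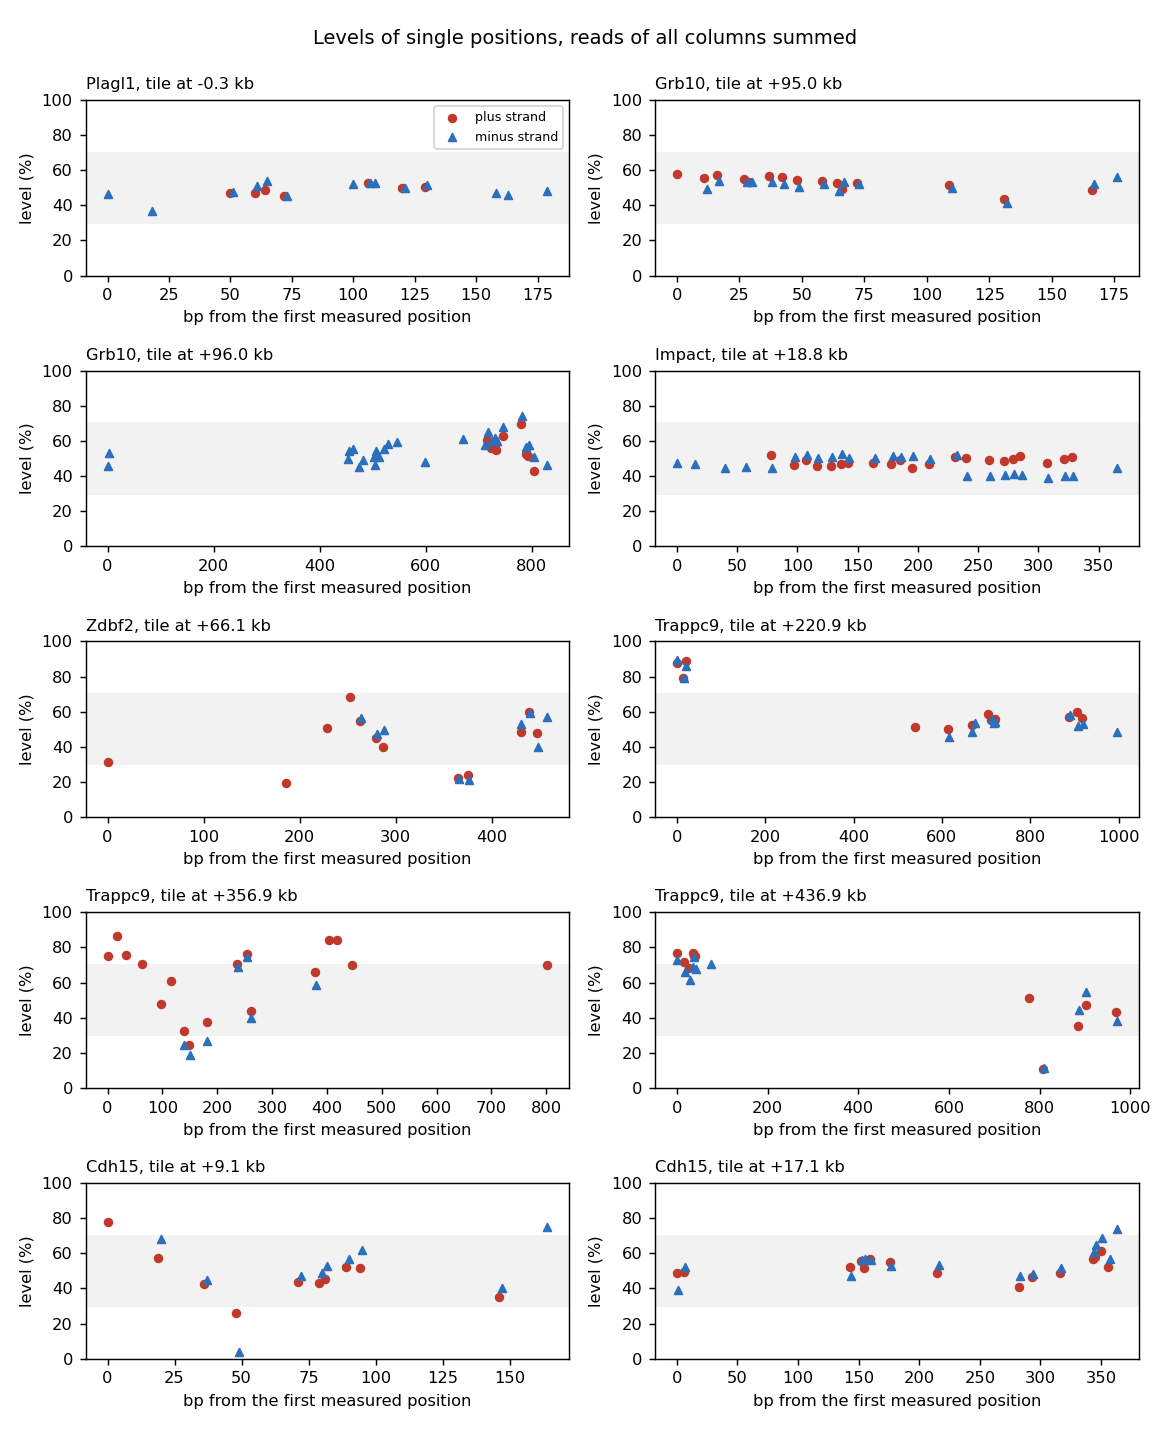
Levels of single positions in the 10 dense intermediate tiles, with the reads of all columns summed, against the distance in bp from the first measured position. Circles are the plus strand, triangles the minus strand, and the band marks 30 to 70%. Positions of the Impact tile stay between 38.9% and 52.5%, whereas those of the Trappc9 tile at +356.9 kb run from 18.9% to 86.4%.

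With the columns summed, the median absolute difference between both strands of a CpG was 0.689 points over 7 CpGs at the Plagl1 end, 3.18 points over 14 CpGs in the Grb10 tile from 12025001, and 5.84 points over 21 CpGs in Impact. It was highest in the Trappc9 tile from 73026001, at 6.13 points, and in the Cdh15 tile from 122857001, at 6.02 points, where a single CpG differed by 22.4 points. In the autosomal tiles with at least 10 such CpGs and a level of 30 to 70% it was 3.95 points. Of the 10 tiles here, 6 exceeded this value, although some of the 10 have only 7 to 9 such CpGs. Within a column, levels were instead pooled over all positions of each strand, with or without a partner on the other strand. The differences within columns are therefore not the same measure as those per CpG. At the Plagl1 end the plus strand had 90.9% and the minus strand 69.8% in column 3, over 110 and 443 calls. In column 5 they had 45.2% and 25.8%, and in column 6 the order was turned, with 47.0% on plus and 68.5% on minus. The plus strand was the higher one in 5 columns and the minus strand in the other 5. The median difference over the columns was 17.8 points at the Plagl1 end, 8.39 and 9.85 points in the Grb10 tiles and 7.18 points in Impact. Over 5118 dense intermediate autosomal tiles this median was 5.99 points, and 95% of them lay below 12.0. The Plagl1 end also had fewer calls, 7510 against a median of 10947 for such tiles, and the part of depth in this difference was not tested.

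The range over columns also varied between these regions. It was 40.1 points at the Plagl1 end, 33.1 and 28.1 in the Grb10 tiles, 18.2 in Impact, 18.2 in the Peg13 tile, 12.8 in the Cdh15 tile from 122865001 and 7.29 in Zdbf2. The median over all dense intermediate tiles was 13.2 points, and a range above 25 points, a limit set after the values were seen, was found in 3 of the 10 tiles and in 2.5% of all. The Plagl1 range was 27.2 points without column 3. Columns had 410 to 1179 calls there, with 553 in column 3, over positions that span 180 bp. The part of depth in the range over columns was not tested. No column was the highest in more than 2 of the 10 tiles, a count that does not show whether a column ranked high throughout. Column 4 was the lowest in 3 of them, and columns 5 and 8 in 2 each. The median of the 10 tile levels ranged from 48.0% in columns 5 and 8 to 58.3% in column 2, while the autosomal level ranged from 40.2% to 44.5%. Whether these ranges differ between the arsenic and the control samples cannot be told from the columns.

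Of 36 other imprinted genes listed by name, 35 were found in the gene table and 26 had a measured internal tile. Of these, 12 held a dense intermediate internal tile, and 5 of the 12 also had a low end. In Commd1, Mest, Snrpn and Usp29, neither end had 3 measured positions, so no end could be called low. Among all 12939 autosomal protein-coding genes with a measured internal tile, 13.9% held a dense intermediate one, and 8.3% had a low end besides. The sets are not alike, since the 12 include the RNA gene Meg3. Of the protein-coding genes of at least 100000 bp, a length that Kcnq1, Snrpn and Usp29 exceed, 27.8% held such a tile. In the 12 imprinted genes, the level of the densest such tile ranged from 31.5% in Gnas, over 69 positions, to 69.98% in Usp29, over 35 positions. Slc38a4 had 69.6% and Zim1 69.3%. Snrpn, of the Prader-Willi region, had 50.4% over 27 positions, and Mest, a paternally expressed hydrolase gene, 54.0% over 25 positions. Commd1, whose intron holds the imprinted gene Zrsr1, had 44.6% over 98 positions, and Kcnq1 had 44.4% over 20 positions. Herc3, host of Nap1l5, had 61.4% over 34 positions, with an end at 0.954%. H13, host of Mcts2, had 62.1% over 30 positions, with ends at 1.64% and 2.12%, so that both of its ends were low and a tile inside was intermediate.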

How the data were processed

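Embryo DNA was made into reduced representation bisulfite libraries, per the labels' protocols, which also describe sperm DNA, although every sample is labelled as embryos. Trim Galore, Bismark, methylKit and mm10 are named in the submitters' processing notes, with no versions or settings given in the sources used here. The authors' deposited table holds raw counts and no other kind of value: per position and library column, the reads covering it, methylated calls and unmethylated calls, per the file headers. The calls added up to the coverage throughout, and coverage was at least 10 in each column. Summed coverage per column ranged from 73509810 to 127743823. Only positions covered in all columns are listed, so ranges describe shared positions. Of 2137826 rows, 4 that repeated a position were left out.

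Of the 10 columns, 0 matched a sample by name, so the planned test of arsenic against control was not run and the columns are not replicates of a group. They are taken for the 10 samples only because their number is the same and they came with the series. The level is methylated calls over coverage, in percent, summed per tile on the genome's own 1000 bp grid. An internal tile lies inside the gene and over 1000 bp from both ends, and a low end has a level under 20% over at least 3 positions. Gene positions came from RefSeq (GRCm38.p6). The tile of a gene whose level was followed through other settings is its intermediate internal tile with the most positions. The members, lists and limits were chosen with earlier results of these data known. The calculation of tile levels was tried on simulated independent calls with a common level per tile. This checks the calculation only, since real calls and columns vary more. Python 3.11.15, numpy 2.4.6, scipy 1.17.1, pandas 2.3.3 and matplotlib 3.10.9 were used.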

Additional observations from a re-analysis of the deposited data

Results flagged for a closer look

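Dixon's test was applied to 23 levels, each across the 10 library columns, and set 1 column apart in 1 of them, where chance gives about 1 in 20. At the promoter end of Rasgrf1, column 7 had a level of 6.45%, the next highest was column 2 at 5.25%, and the lowest was 4.04%. Whether column 7 is an arsenic or a control sample was not analysed here.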

How the results depend on the processing

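No paired analysis was possible because the columns carry no group and the arsenic and control samples could not be matched to them. The number of dense intermediate internal tiles, 9 in 5 genes, stayed at 9 without the most covered positions, with positions weighted equally and with limits of 20 to 80%, and was 8 with limits of 40 to 60%, a grid shifted by 500 bp or gene-end windows of 2000 bp. It was 2 at a coverage of at least 20 in each column, 1 on the plus strand alone and 2 on the minus strand alone. These settings leave fewer positions per tile by construction. The number depended on the limit for dense, since it was 1 with dense from 40 positions and 22 with dense from 10. It was 16 with tiles of 500 bp that are dense from 10 positions. With dense from 10 positions, chosen after seeing the data for single strands, it was 11 on plus and 7 on minus. It was 9 without each column in turn. At a coverage of at least 20, the Zdbf2 tile had 26.3% and the Peg13 tile of Trappc9 50.4%, with 7 and 6 positions left. With positions weighted equally the Zdbf2 tile had 43.8%. A distance of 50000 bp gave 163 measured tiles, against 99, and 12 dense intermediate ones, against 10 with the Plagl1 end. The remaining levels of internal tiles moved by less than their SD over columns under these settings. Several gene ends had no measured position within 1000 bp and have no level, among them both ends of Impact, and the level of the Cdh15 promoter end rests on 5 positions and 766 calls.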
